A study of Mus musculus with 27 samples.

Results

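The alpha-1 antitrypsin genes Serpina1a to Serpina1e and the related genes Serpina3c, Serpina3k, Serpina3m and Serpina3n were followed in microdissected zones of the mouse liver before and during pregnancy. They were taken by symbol from the deposited expression table, which holds 21823 genes, and all 9 were found there. In all 27 libraries came from liver of female wild-type mice, C57BL/6 in the labels and C57BL/6N in the study's methods, that carried no transgene and received no treatment according to the labels, which give no age. There were 9 groups of 3 libraries, made by crossing 3 stages with 3 zones of the liver lobule. The stages were non-pregnant (NP), day 8 post-coitum (dpc8) and day 16 post-coitum (dpc16), and the zones were zone 1 around the portal vein, zone 2 in the middle and zone 3 around the central vein. Each library was made from tissue cut out of frozen sections with a laser. The labels number the replicates without naming animals. The study calls its replicates independent and says for its experiments in general that different mice were used, but neither source ties a library to an animal. Where libraries did come from the same animal, the p-values below measure a spread that is partly technical.

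Serpins are protease inhibitors that offer an exposed loop, the reactive centre loop, as bait: the protease cuts the loop and stays trapped on the inhibitor. Alpha-1 antitrypsin is secreted by hepatocytes in large amounts and its best known target is neutrophil elastase. Humans have a single antitrypsin gene and a single alpha-1 antichymotrypsin gene, SERPINA3, whereas mice carry families of close copies of both. Serpina3k encodes a plasma inhibitor of kallikrein-like proteases, Serpina3n an inhibitor of granzyme B and other serine proteases that is known to rise in the acute phase, and Serpina3c and Serpina3m are less well studied relatives.

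All 9 genes lie on chromosome 12 (mm10). Serpina1b (position 103728156 to 103830373), Serpina1d (103763594 to 103773592), Serpina1a (103853589 to 103863562), Serpina1c (103894926 to 103904887) and Serpina1e (103946931 to 103958975) lie side by side on the minus strand, and the annotated span of Serpina1b covers Serpina1d. Serpina3c (104146382 to 104153870) is also on the minus strand. Serpina3k (104338486 to 104346144), Serpina3m (104338486 to 104394257) and Serpina3n (104406729 to 104414329) follow on the plus strand, and a transcript of Serpina3m begins where Serpina3k begins.

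The coding sequences of Serpina1a to Serpina1e were 96.3% to 98.5% identical, and the closest pair, Serpina1a and Serpina1c, differed at 19 of 1242 aligned bases. The window of 75 coding bases with the most differing positions lay in the last exon, in the part that encodes the reactive centre loop. It is printed here 5′ to 3′ on the coding strand, with capitals at the 19 positions where the 5 genes are not all the same. They lie at chr12:103853744-103853818 in Serpina1a (exon 6 of 6), chr12:103728311-103728385 in Serpina1b, chr12:103895081-103895155 in Serpina1c, chr12:103763749-103763823 in Serpina1d and chr12:103947087-103947161 in Serpina1e (exon 5 of 5 in the last 4 genes).
Serpina1a: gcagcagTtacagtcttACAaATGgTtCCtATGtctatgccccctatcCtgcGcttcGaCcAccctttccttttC
Serpina1b: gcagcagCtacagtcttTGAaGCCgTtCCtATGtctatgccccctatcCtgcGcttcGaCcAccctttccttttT
Serpina1c: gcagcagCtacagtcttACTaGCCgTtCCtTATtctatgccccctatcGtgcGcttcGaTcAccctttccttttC
Serpina1d: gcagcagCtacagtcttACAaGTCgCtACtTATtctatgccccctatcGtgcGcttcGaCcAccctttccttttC
Serpina1e: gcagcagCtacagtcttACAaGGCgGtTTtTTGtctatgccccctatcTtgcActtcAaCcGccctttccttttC

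The authors kept reads that mapped to 1 place only. Of the windows of 86 bases, as long as the reads, along each gene's main transcript, 78.5% were found in no other gene's annotated transcript for Serpina1e, 70.7% for Serpina1b, 66.6% for Serpina1d, 46.0% for Serpina1a and 28.6% for Serpina1c. Serpina1c shared 60.7% of its windows with Serpina1a alone. The level of each antitrypsin gene, and above all of Serpina1c and Serpina1a, therefore rests on part of its transcript, and an order of levels between the copies is uncertain. The Serpina3 genes were easier to separate, with 93.8% of windows found in no other gene for Serpina3k, 92.2% for Serpina3m, 99.1% for Serpina3n and all of them for Serpina3c. To show how far Serpina3k, Serpina3m and Serpina3n differ, 75 bases of the last exon (exon 5 of 5) follow, at chr12:104345334-104345408 in Serpina3k, chr12:104393840-104393914 in Serpina3m and chr12:104413519-104413593 in Serpina3n, with capitals at the 29 positions that differ among the 3 genes.
Serpina3k: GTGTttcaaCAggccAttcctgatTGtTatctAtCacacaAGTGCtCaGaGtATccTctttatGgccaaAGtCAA
Serpina3m: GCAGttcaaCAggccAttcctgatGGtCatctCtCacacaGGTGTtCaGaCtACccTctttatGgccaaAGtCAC
Serpina3n: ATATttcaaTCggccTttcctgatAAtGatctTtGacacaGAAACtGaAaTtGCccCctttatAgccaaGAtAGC

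The antitrypsin genes also share sequence near their start. RefSeq promoter sequences (GRCm38.p6, from 250 bases before the start) were matched for 7 of the 9 genes, all but Serpina3k and Serpina3m. The 5 antitrypsin promoters hold the same 38 bases, at chr12:103863625-103863662 for Serpina1a, shown 5′ to 3′ on the minus strand with the letters GTTAAT in capitals, which were counted over all promoters.
Shared promoter run: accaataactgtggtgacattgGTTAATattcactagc
The capitals lie 21, 26, 27, 16 and 78 bases before the RefSeq start of Serpina1a, Serpina1b, Serpina1c, Serpina1d and Serpina1e. The same 6 letters, on either strand, are in 2113 of 32851 mouse promoters (6.4%). Serpina3c has them once on the other strand, 239 bases before its start, and Serpina3n has none. The STAT letters TTCNNNGAA, present in 2306 promoters (7.0%), were found in none of the 7.

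Expression is given as FPKM (fragments per kilobase of transcript, divided by the size of the library), as the authors deposited it. The summed FPKM of a library ranged from 499866 to 988500 and was 876877 to 988500 in the 3 libraries of dpc16 zone 1. The FPKM of low genes lay on whole-read steps for 88.7% to 96.9% of the values tried (within 0.05 of a whole read), which corresponds to 7600000 to 33660000 reads per library if a library's total was the divisor. Zone markers followed the labels. The summed FPKM of 10 periportal markers was 5208 to 10985 in the zone 1 libraries and 359 to 3304 in the zone 3 libraries, and that of 10 pericentral markers was 417 to 867 against 8111 to 19792. Against the label female, 6 libraries held 7.92 to 23.2 FPKM of 4 Y-linked genes, and the other 21 held 0 to 2.97. They were replicate 1 of NP zone 1, replicate 2 of NP zone 3, replicate 1 of dpc8 zone 1, replicate 2 of dpc8 zone 2 and replicate 3 of dpc16 zones 2 and 3. In the same 6 libraries the summed FPKM of 10 connective tissue and smooth muscle markers was 982 to 4627, against 84.7 to 575 in the other 21, and the summed FPKM of 10 hepatocyte markers was 51867 to 92869 against 59791 to 280353. The antitrypsin genes together reached 3744 to 6350 FPKM in these 6 and 4773 to 23541 in the other 21. The values of single genes, and the shares of all genes at an unadjusted p, are given for all 27 libraries. Most of the other results below have values without the 6 libraries beside them. Fewer hepatocytes in a piece of tissue and less of an RNA per hepatocyte cannot be told apart in such samples.

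**Figure D1:**
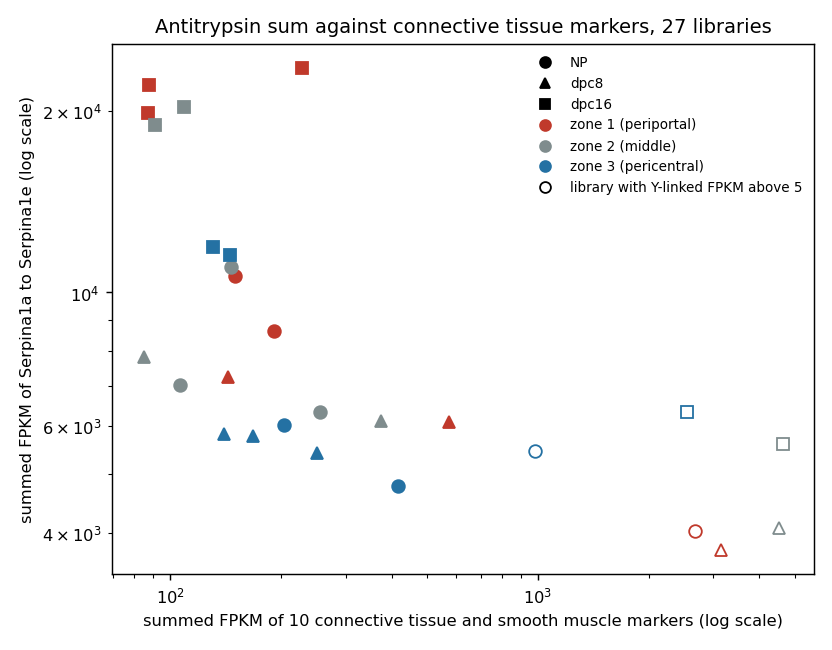
Summed FPKM of Serpina1a to Serpina1e (vertical, log scale) against the summed FPKM of 10 connective tissue and smooth muscle markers (horizontal, log scale), 1 point per library, with shape for stage, colour for zone and open symbols for the 6 libraries with Y-linked FPKM above 5. The open symbols lie at 982 or more on the horizontal axis, and the 3 libraries of dpc16 zone 1 lie between 19842 and 23541 on the vertical axis.

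Serpina1b had the highest median of the 9 genes. In zone 1 its FPKM was 1558, 3200 and 3771 in NP, 1224, 2566 and 2796 at dpc8, and 8319, 7691 and 9553 at dpc16. All 3 dpc16 libraries lay above all others of the zone, and the lowest value of NP and of dpc8 was in each case the library with Y-linked FPKM. In zone 2 it measured 2500, 2549 and 2921 in NP, 1975, 1646 and 2840 at dpc8, and 7996, 6526 and 2302 at dpc16, so that replicate 3 of dpc16, a library with Y-linked FPKM, fell among the earlier stages. In zone 3 the values were 1911, 1876 and 2207 in NP, 1887, 2172 and 2304 at dpc8, and 5235, 4988 and 3036 at dpc16, without overlap between dpc16 and the rest. The group means followed the order dpc16 zone 1 (8521), dpc16 zone 2 (5608), dpc16 zone 3 (4420), then NP zone 1 (2843) down to NP zone 3 (1998), with the 3 dpc8 groups from 2121 to 2195. The 6 groups of NP and dpc8 overlapped with their neighbours in this order.

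Serpina1a and Serpina1d followed Serpina1b closely at a lower level. Serpina1a measured 533, 964 and 1171 in NP zone 1, 395, 782 and 783 in dpc8 zone 1, and 1931, 1871 and 1920 in dpc16 zone 1. The 3 dpc16 values were close together (SD 32.0) and above every earlier value. Serpina1d measured 929, 1948 and 2218 in NP zone 1, 922, 1499 and 1681 in dpc8 zone 1, and 4015, 3677 and 4253 in dpc16 zone 1. In zone 3 Serpina1d was 1220, 1237 and 1436 in NP, 1394, 1356 and 1384 at dpc8, and 2638, 2460 and 1447 at dpc16, where the lowest value, from the library with Y-linked FPKM, was still above those of NP and dpc8. Across the 27 libraries Serpina1a ranged 5.13-fold and Serpina1d 4.61-fold. Pearson's r of log2(FPKM + 1) was 0.98 between Serpina1a and Serpina1d, 0.98 between Serpina1b and Serpina1d and 0.96 between Serpina1a and Serpina1b over the 27 libraries, which share stage, zone, tissue make-up and, for these genes, sequence. Over the 21 libraries without Y-linked FPKM these values were 0.98, 0.99 and 0.98.

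Serpina1c, the copy with the fewest windows of its own, measured 820, 1735 and 1825 in NP zone 1, 739, 967 and 1330 in dpc8 zone 1, and 2460, 2192 and 2774 in dpc16 zone 1. In zone 3 it measured 856, 1172 and 1012 in NP, 1188, 789 and 900 at dpc8, and 1110, 976 and 549 at dpc16. The dpc16 libraries were thus above the others in zone 1. In zone 3 replicate 3 of dpc16, a library with Y-linked FPKM, was below all 6 libraries of NP and dpc8, and the other 2 dpc16 libraries lay among those 6.

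Serpina1e was the most variable of the 9 genes above 1 FPKM, from 99.8 to 6678 FPKM, a range of 66.9-fold. In NP it measured 178, 798 and 1649 in zone 1, 187, 540 and 3197 in zone 2, and 99.8, 443 and 618 in zone 3, and in each zone replicate 1 was lowest and replicate 3 highest. At dpc8 the 9 values lay between 231 and 839. At dpc16 it measured 3117, 6678 and 5041 in zone 1, 4520, 5909 and 1153 in zone 2, and 1478, 1757 and 591 in zone 3. Its dpc16 zone 1 libraries were above all of NP and dpc8 in that zone, while in zone 2 replicate 3 of NP overlapped with dpc16.

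Serpina3k was the most abundant Serpina3 gene in every library and made up 70.0% to 91.0% of the Serpina3 sum. It measured 935, 4187 and 3729 in NP zone 1, 1880, 1597 and 2359 in dpc8 zone 1, and 5394, 5421 and 3051 in dpc16 zone 1. In dpc16 zone 3 it measured 1845, 2393 and 651, all below the zone 1 libraries of that stage. NP and dpc16 overlapped in each of the 3 zones for this gene, with ranges of 854 to 5148 FPKM over the 9 NP libraries and 651 to 5421 over the 9 of dpc16.

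Serpina3n measured 108, 211 and 254 in NP zone 1, 280, 291 and 260 in dpc8 zone 1, and 401, 1591 and 454 in dpc16 zone 1. In zone 3 it was 132, 135 and 154 in NP, 341, 210 and 156 at dpc8, and 239, 611 and 162 at dpc16. Replicate 2 was the highest dpc16 library in each zone, at 1069 FPKM in zone 2, and the lowest library of that zone and stage had 110. Every dpc8 library was above every NP library in zones 1 and 3, by 1.45-fold and 1.68-fold of the means, as held for 3.60% and 4.74% of the 12952 genes tested, and neither difference passed the test (limma adjusted p = 1). Leaving out the libraries with Y-linked FPKM could not make these groups overlap, so it is no check of this.

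Serpina3m stayed between 133 and 331 FPKM in the 18 libraries of NP and dpc8 and between 54.8 and 411 in the 9 of dpc16. Its highest dpc16 value in each zone was again that of replicate 2, with 411, 314 and 295 FPKM in zones 1, 2 and 3. Serpina3c was close to 0: it was listed at 0 in 13 libraries, its highest value was 0.239 FPKM, and it did not pass the filter of 1 FPKM in at least 3 libraries, so 8 of the 9 genes were tested.

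**Figure D2:**
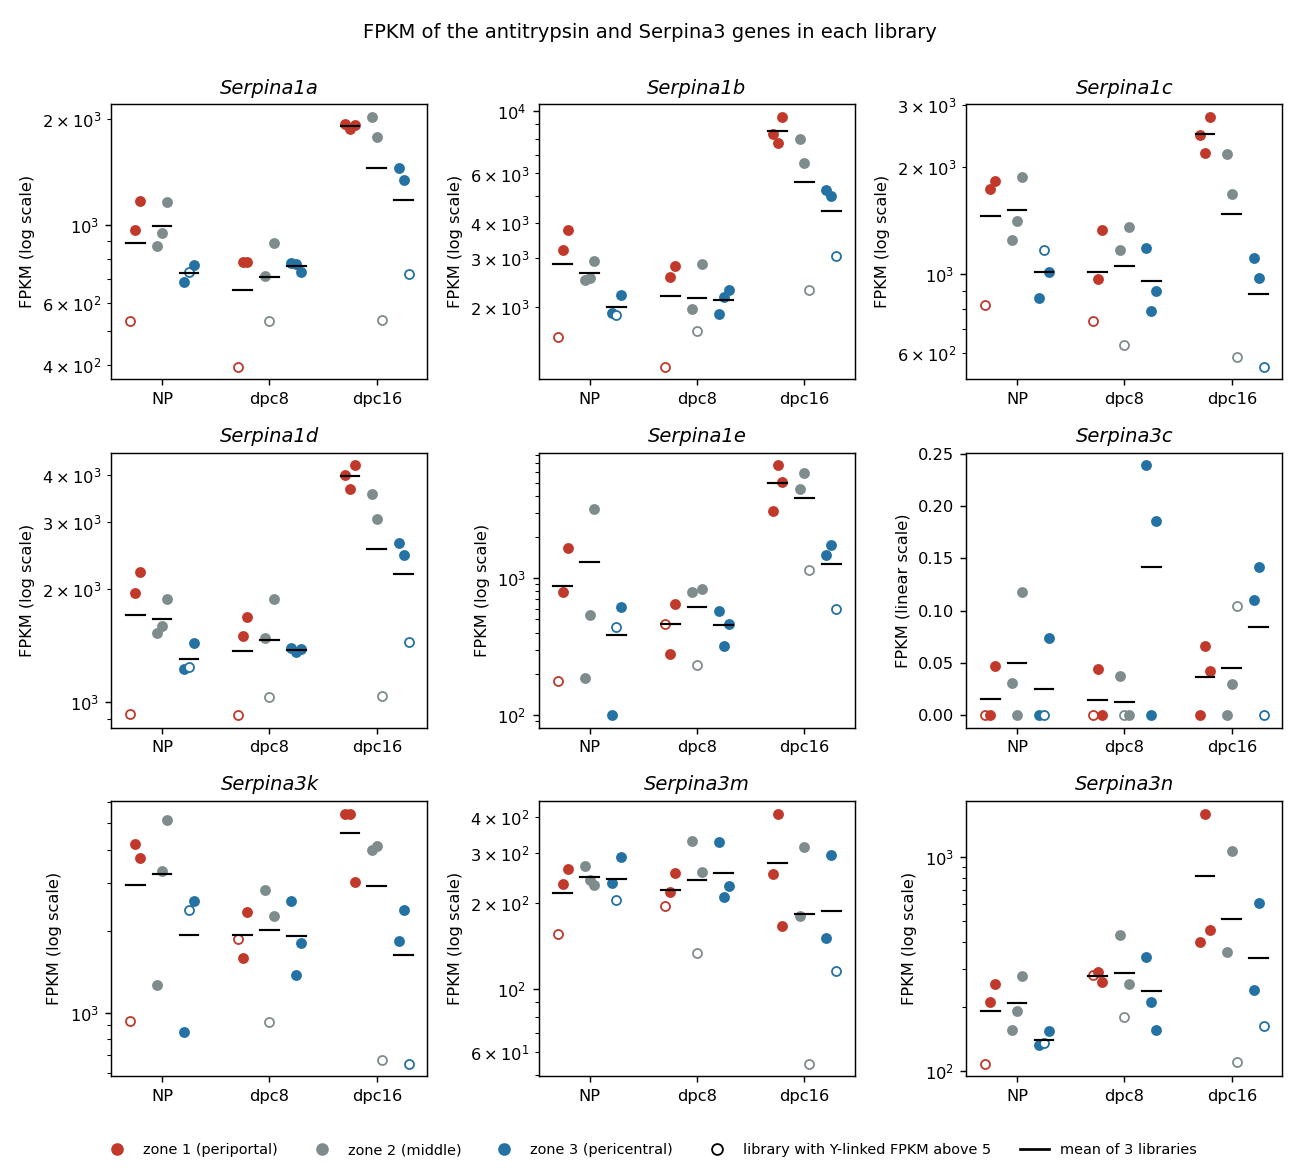
FPKM of each gene in each library, by stage (horizontal) and zone (colour), on a log scale except for Serpina3c, with open symbols for the 6 libraries with Y-linked FPKM above 5 and bars for the mean of 3 libraries. In dpc16 zone 1 all filled symbols of Serpina1a, Serpina1b, Serpina1c, Serpina1d and Serpina1e lie above the zone 1 symbols of NP and dpc8, and the open symbols are low in most panels.

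The first question was how the genes differed between late pregnancy and the earlier stages. In zone 1, 1 of the 5 antitrypsin genes passed the test against NP and 3 of the 5 passed against dpc8. Against NP, Serpina1b rose, with 8521 ± 947 FPKM at dpc16 and 2843 ± 1149 in NP (SD, n = 3 each), a 3.00-fold ratio of the means and a log2 difference of 1.67 (SE 0.41, limma on log2(FPKM + 1), adjusted p = 0.0375). It was the only one of the 8 genes tested that passed, where 1.37% of all 12952 genes tested did. Serpina1d differed by 1.32 (adjusted p = 0.109) and Serpina1e by 2.93 (adjusted p = 0.136) without passing, and the difference of Serpina1e was 2.04 without replicate 1 of NP and 3.64 without replicate 3. The 3 libraries of dpc16 were above the 3 of NP for 6 of the 8 genes, Serpina1a to Serpina1e and Serpina3n, and the same held for 9.42% of all genes tested. The median difference was 1.25 over the 8 genes and -0.05 over all genes, as log2. Leaving out the 6 libraries could not make these groups overlap and added no further gene, while the share of all genes was 14.5%. The median over the 8 was then 0.89.

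The same dpc16 libraries were set against dpc8, so the comparisons with NP and dpc8 are not independent. Here Serpina1b (3.88-fold, log2 difference 2.04, SE 0.41, adjusted p = 0.00924), Serpina1a (2.92-fold, 1.61, SE 0.40, adjusted p = 0.0386) and Serpina1d (2.91-fold, 1.58, SE 0.39, adjusted p = 0.0367) rose, which makes 3 of 8 where 2.01% of all genes passed. Serpina1e had the largest ratio, 10.7-fold (log2 difference 3.43, SE 0.91), and just missed the threshold (adjusted p = 0.0528). Of the Serpina3 genes, Serpina3n differed by 2.94-fold (adjusted p = 0.400), and by 1.54-fold without replicate 2 of dpc16 (adjusted p = 0.809). The ratio was 2.38-fold for Serpina3k (adjusted p = 0.492) and 1.24-fold for Serpina3m (adjusted p = 0.873). The groups did not overlap for 7 of the 8 genes, all but Serpina3m, against 9.80% of all genes. The median difference was 1.45 over the 8 genes and -0.05 over all. Removing the 6 libraries could not make these groups overlap and added no further gene, while the share of all genes was 15.8%. The median over the 8 was then 1.27.

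Most of these calls depended on single libraries. Without replicate 1 of NP zone 1, a library with Y-linked FPKM, the log2 difference of Serpina1b against NP was 1.29 (adjusted p = 0.226), and the adjusted p was 0.0710 without replicate 2 of NP zone 1, and 0.131, 0.103 and 0.103 without replicate 1, 2 or 3 of dpc16 zone 1. The call held without replicate 3 of NP zone 1 (adjusted p = 0.0386). Without replicate 1 of dpc8 zone 1, none of the 3 calls against dpc8 held, with adjusted p = 0.0614 for Serpina1b, 0.195 for Serpina1a and 0.170 for Serpina1d. Serpina1b kept its call without any other single library of the comparison, whereas Serpina1a and Serpina1d lost theirs each time, with adjusted p from 0.0574 to 0.131. Markers of the tissue moved with stage in the same libraries. The hepatocyte marker sum was 232608 to 279926 FPKM in dpc16 zone 1, 53717 to 131774 in NP zone 1 and 53504 to 89379 in dpc8 zone 1. Most of it was albumin, at 151511 to 203747, 30723 to 84387 and 33701 to 60653 FPKM. The mean log2(FPKM + 1) of the 10 markers was 12.1 to 12.2, 10.9 to 11.9 and 10.5 to 11.3. The periportal marker sum overlapped, at 7250 to 8354, 6569 to 10985 and 5208 to 8003 FPKM. The connective tissue marker sum was 87.3 to 228, 150 to 2683 and 144 to 3143. With the connective tissue marker score as a covariate the log2 difference of Serpina1b was 1.28 against NP (adjusted p = 0.00143) and 1.58 against dpc8 (adjusted p = 0.000152). The part of the hepatocyte markers was not tested. Under quantile normalization, which gives every library the same distribution of values, Serpina1b against NP (log2 difference 0.63, adjusted p = 0.211), Serpina1a against dpc8 (1.05, adjusted p = 0.0658) and Serpina1d against dpc8 (0.65, adjusted p = 0.0694) lost their calls, and Serpina1b against dpc8 kept its call at a smaller difference (0.86, adjusted p = 0.0384). With each library scaled to the same FPKM sum all 4 calls held at smaller differences. These were 1.06 for Serpina1b against NP and 1.33, 0.90 and 0.87 for Serpina1b, Serpina1a and Serpina1d against dpc8. The median of all genes was then -0.57 against NP and -0.66 against dpc8, and more of all genes passed against NP than without scaling.

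In zones 2 and 3 no member passed with all 27 libraries. Serpina1b differed from NP by 2.11-fold in zone 2 (adjusted p = 0.265) and 2.21-fold in zone 3 (adjusted p = 0.233), where 2.66% and 1.32% of all genes passed. Against dpc8 the lowest adjusted p of the 8 genes was 0.162 in zone 2 and 0.261 in zone 3, where 1.51% and 1.37% of all genes passed. At an unadjusted p under 0.05 the counts were 2 and 3 genes in zone 2 and 2 and 1 in zone 3, against NP and dpc8 in this order, beside 16.6% and 12.1% of all genes in zone 2 and 11.5% and 12.4% in zone 3. In both zones replicate 3 of dpc16 held Y-linked FPKM and the lowest Serpina1b of its group.

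With the 6 libraries left out and 21 kept, 3 antitrypsin genes passed against NP in every zone. Serpina1b was then 2.44-fold higher at dpc16 than in NP in zone 1 (adjusted p = 0.000193), 2.73-fold in zone 2 (adjusted p = 4.5e-05) and 2.48-fold in zone 3 (adjusted p = 0.000402). Serpina1d rose 1.91-fold, 1.99-fold and 1.92-fold in zones 1, 2 and 3 (adjusted p = 0.00108, 0.000480 and 0.00244). Serpina1a rose 1.79-fold, 1.91-fold and 1.93-fold (adjusted p = 0.00306, 0.000914 and 0.00261). These were 3 of 8 genes in each zone, with 2.92%, 4.45% and 3.61% of all genes passing. Against dpc8 the same 3 genes passed in zones 2 and 3 (3.91% and 3.87% of all genes), by 3.02-fold and 2.41-fold for Serpina1b. In zone 1 Serpina1c and Serpina1e passed as well, 5 of 8 where 4.38% of all genes passed: Serpina1c rose 2.16-fold (adjusted p = 0.00474) and Serpina1e 10.7-fold (adjusted p = 0.0311). No Serpina3 gene passed in any of these comparisons. Groups then held 2 or 3 libraries each, and the fit pooled the spread over all groups.

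**Figure D3:**
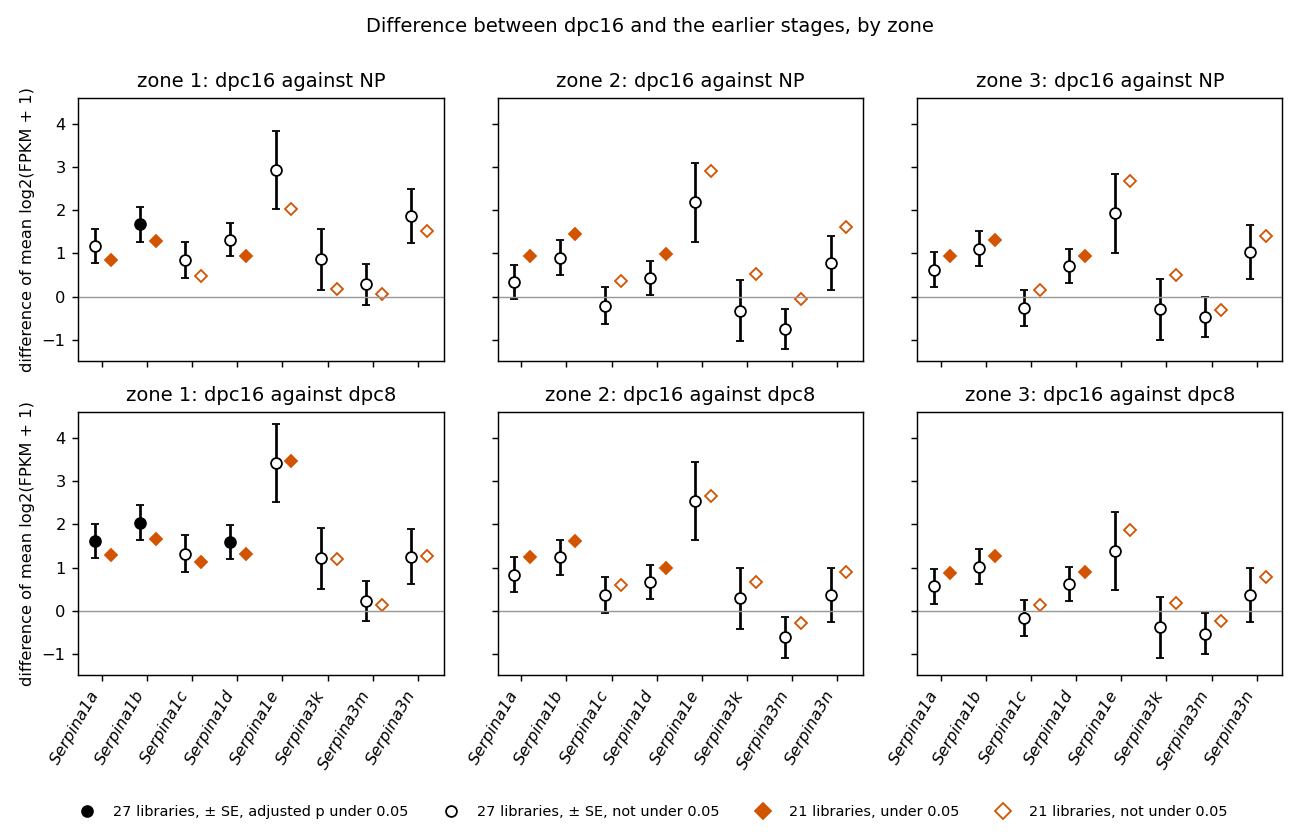
Difference of mean log2(FPKM + 1) between dpc16 and NP (top) or dpc8 (bottom) for the 8 genes tested, by zone, with all 27 libraries (circles, bars ± SE) and without the 6 libraries with Y-linked FPKM (diamonds), filled where the adjusted p was under 0.05. Filled circles appear in zone 1 only, for Serpina1b in the top row and for Serpina1a, Serpina1b and Serpina1d in the bottom row, while filled diamonds appear for Serpina1a, Serpina1b and Serpina1d in every panel.

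Between NP and dpc8 no member passed in any zone, where 0.0309%, 0.00772% and 0.0154% of all genes passed in zones 1, 2 and 3. At an unadjusted p under 0.05 the count was also 0 of 8 in each zone, beside 3.13%, 5.06% and 2.74% of all genes, with log2 differences from -0.62 to 0.67. The largest was that of Serpina3n in zone 3, 0.67 (SE 0.63). Leaving out the 6 libraries gave no call either, and in zone 1 every dpc8 library was then below every NP library for 6 of the 8 genes, the 5 antitrypsin genes and Serpina3k, as for 15.9% of all genes.

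The next question was how the genes differed between zones. With all libraries and no account of replicate number, no member passed in any of the 9 zone comparisons. Between zones 1 and 3 the share of all genes that passed was 1.34% in NP, 1.61% at dpc8 and 1.55% at dpc16, between zones 1 and 2 it was 0.154%, 0.124% and 0.139%, and between zones 2 and 3 it was 0.401%, 0.347% and 0.517%. In NP and at dpc8 no member reached an unadjusted p under 0.05. In NP 8.02% of all genes did between zones 1 and 3, 5.34% between zones 1 and 2 and 7.02% between zones 2 and 3, and at dpc8 12.2%, 3.40% and 4.32% did. In NP the 3 libraries of zone 2 lay above the 3 of zone 3 for 5 of the 8 genes, and for 6.17% of all genes. They were Serpina1a, Serpina1b, Serpina1c, Serpina1d and Serpina3n. Leaving out the 6 libraries could not undo this and added no further gene, with 11.7% of all. With groups of 2 libraries left, zone 1 over zone 3 in NP went from 0 to 7 of the 8 genes. Zone 2 over zone 3 at dpc16 went from 0 to 6. The share of all genes is not given for these 2 counts. Between zone 1 and zone 3 at dpc16, 5 of 8 genes had an unadjusted p under 0.05, beside 7.86% of all genes. For 6 of 8, the 5 antitrypsin genes and Serpina3k, every zone 1 library was above every zone 3 library, as for 8.36% of all genes. Here too, leaving out the 6 libraries could not undo this and added no further gene, with 15.5% of all. Serpina1c came closest (2475 ± 291 against 878 ± 293 FPKM, SD, n = 3 each, 2.82-fold, log2 difference 1.55, SE 0.42, adjusted p = 0.0740), followed by Serpina1b (1.93-fold, adjusted p = 0.458). The ratios of Serpina1e (3.88-fold) and Serpina3k (2.84-fold) were larger with a wider spread (SE 0.91 and 0.71).

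At dpc16, libraries of the 3 zones with the same replicate number deviated together from their group means, so that the number was taken to mark a pair at this stage. Correlations of these deviations were 0.63 to 0.86 between zones 2 and 3, whose replicates 3 both held Y-linked FPKM. With zone 1 they were 0.26 to 0.40. Between same-numbered libraries of different stages they ran from -0.62 to 0.68. The pairing is thus an assumption, and the calls with the block rest on it. With the replicate block Serpina3k (adjusted p = 0.00629), Serpina1e (adjusted p = 0.0131) and Serpina1c (adjusted p = 0.0193) were higher in zone 1 than in zone 3 at dpc16, 3 of 8 where 2.65% of all genes passed. Without the 6 libraries and without the block, a partly different set passed: Serpina1c (2.37-fold, adjusted p = 0.00205), Serpina1d (1.56-fold, adjusted p = 0.0200) and Serpina1b (1.67-fold, adjusted p = 0.0207), where 2.71% of all genes passed. Serpina1c passed in both. The same 3 genes were then higher in zone 1 in NP, by 1.91-fold for Serpina1c (adjusted p = 0.0493), 1.57-fold for Serpina1d (adjusted p = 0.0445) and 1.69-fold for Serpina1b (adjusted p = 0.0405), where 1.81% of all genes passed. At dpc8 none passed without the 6 libraries.

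**Figure D4:**
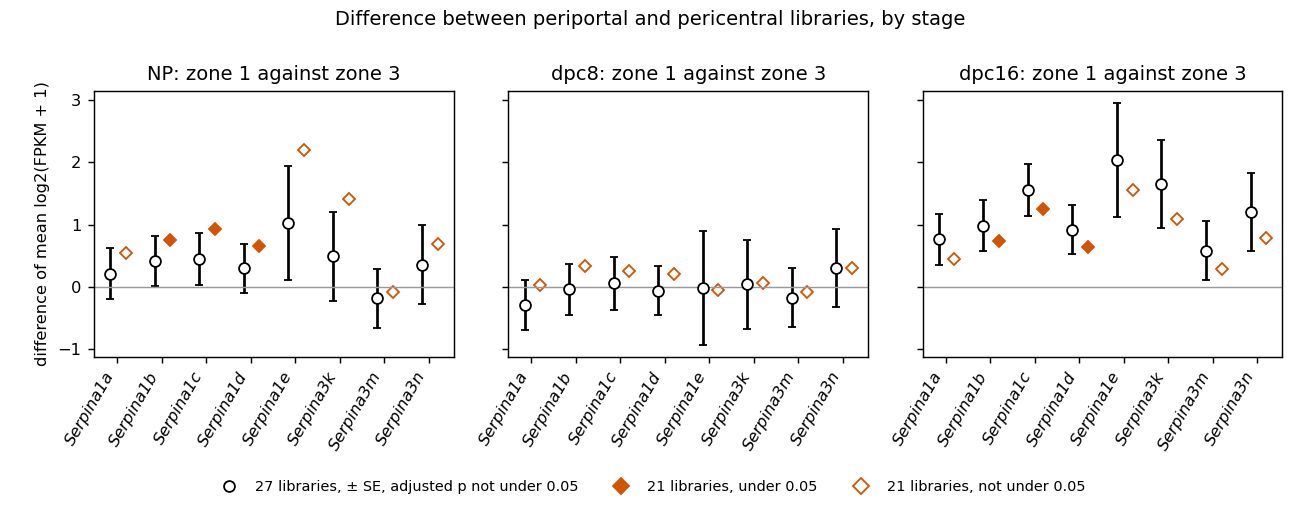
Difference of mean log2(FPKM + 1) between zone 1 and zone 3 for the 8 genes tested, by stage, with all 27 libraries and no replicate block (circles, bars ± SE) and without the 6 libraries with Y-linked FPKM (diamonds), filled where the adjusted p was under 0.05. At dpc16 every circle lies above 0, at dpc8 the circles lie within 0.31 of it, and filled diamonds mark Serpina1b, Serpina1c and Serpina1d in NP and at dpc16.

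Whether the change with stage itself differed between zones was tested as a difference of differences. No member passed. For dpc16 against NP the share of all genes that passed was 0.0540% between zones 1 and 3, 0% between zones 1 and 2 and 0.0154% between zones 2 and 3, and for dpc8 against NP it was 0% in each case. The change of Serpina1c from NP to dpc16 was 1.10 larger in zone 1 than in zone 3 as log2 (SE 0.59, unadjusted p = 0.0783, adjusted p = 0.993), and that of Serpina1b was 0.57 larger (SE 0.57, adjusted p = 0.993). No member passed without the 6 libraries either, and these differences were 0.31 for Serpina1c and -0.03 for Serpina1b (adjusted p = 1 for both). These data thus do not tell whether the change called in zone 1 was larger there than in zones 2 and 3.

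The sum over the 5 antitrypsin genes depends little on which copy a read is given to, since their main transcripts are 1295 to 1581 bases long, but it also lacks the reads that map to more than 1 copy. It was 7766 ± 3394 FPKM in NP, 5692 ± 1781 at dpc8 and 21831 ± 1865 at dpc16 in zone 1 (SD, n = 3 each). In zone 2 it was 8135 ± 2542, 6004 ± 1875 and 14953 ± 8115, and in zone 3 it was 5425 ± 634, 5675 ± 229 and 9930 ± 3107. As a share of all FPKM of a library the sum was 1.23% ± 0.37 in NP zone 1, 0.991% ± 0.240 in dpc8 zone 1 and 2.36% ± 0.34 in dpc16 zone 1. The 3 libraries of dpc16 zone 1, with 2.01%, 2.40% and 2.68%, were above the highest share of the other 2 stages in any zone, 1.66%. Set against albumin, the main plasma protein made by hepatocytes, the sum did not follow the same order. It was 12.6% to 13.8% of the albumin FPKM in NP zone 1 and 9.74% to 15.5% in dpc16 zone 1, and 19.4% to 21.3% in NP zone 3, a median of 21.1% in dpc8 zone 3 and 8.65% to 11.5% in dpc16 zone 3. In zone 3 the dpc16 range lay below those of the other stages. With the 6 libraries left out the antitrypsin sum was 9640 ± 1406 FPKM in NP zone 1 and 6666 ± 809 in dpc8 zone 1 (SD, n = 2 each), 19622 ± 956 in dpc16 zone 2 and 11721 ± 276 in dpc16 zone 3 (n = 2 each). As a share of all FPKM it was then 1.44% ± 0.10 in NP zone 1 and 1.13% ± 0.07 in dpc8 zone 1, and against albumin it was at most 9.10% in dpc16 zone 3 and at least 20.8% in NP and dpc8 zone 3. The Serpina3 sum was 3359 ± 1881 FPKM in NP, 2445 ± 391.8 at dpc8 and 5714 ± 1898 at dpc16 in zone 1, and without the 6 libraries it was 4439 ± 273 in NP and 2490 ± 543 at dpc8 (n = 2 each). In zone 2 the Serpina3 sum was 3712 ± 1981, 2546 ± 1199 and 3621 ± 2459 FPKM in NP, at dpc8 and at dpc16, and in zone 3 it was 2327 ± 971, 2418 ± 752 and 2154 ± 1187. Without the 6 libraries it was 5012 ± 698 in dpc16 zone 2 and 2766 ± 753 in dpc16 zone 3 (n = 2 each), beside 3712 ± 1981 (n = 3) and 2128 ± 1284 (n = 2) in NP. As a share of all FPKM the zone 1 sum was then 0.669% ± 0.093 in NP and 0.612% ± 0.193 at dpc16, within the spread of the libraries.

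The make-up of the antitrypsin sum differed with stage, a pattern that was seen in the values and was not tested. Serpina1c made up 16.7% to 21.5% of the sum in the 9 NP libraries (median 19.7%), 14.6% to 20.4% at dpc8 (median 17.4%) and 8.47% to 12.4% at dpc16 (median 9.91%). All 9 dpc16 libraries, those with Y-linked FPKM included, were below all 18 others. Serpina1e went the other way with much overlap, from medians of 8.12% in NP and 8.95% at dpc8 to 20.5% at dpc16, with ranges of 2.09% to 29.0%, 4.58% to 12.9% and 9.31% to 31.2%. Serpina1b was the largest part, with medians of 36.5%, 38.6% and 41.0%, except in replicate 3 of NP zone 2, where Serpina1e was larger. Only 28.6% of the windows of Serpina1c were found in no other gene's transcript, and reads that map to more than 1 place were left out. Windows were compared between transcripts and not by place in the genome, so how many of its reads were lost was not measured. The share of Serpina1a had medians of 13.3%, 12.7% and 9.73%. That of Serpina1d had medians of 22.7%, 24.1% and 18.5%, or 22.6%, 24.1% and 18.1% without the 6 libraries. With all libraries it was 16.1% to 22.8% at dpc16, below the 23.2% to 25.3% of dpc8 and overlapping with the 17.0% to 25.6% of NP. Among the Serpina3 genes, Serpina3n made up a median of 5.07% of the sum in NP, 11.7% at dpc8 and 13.2% at dpc16. The medians without the 6 libraries were 17.9%, 17.4% and 9.91% for Serpina1c, 9.23%, 8.95% and 21.4% for Serpina1e, 36.5%, 38.6% and 40.6% for Serpina1b, 12.7%, 12.7% and 9.73% for Serpina1a and 5.07%, 10.5% and 12.4% for Serpina3n, in NP, at dpc8 and at dpc16.

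**Figure D5:**
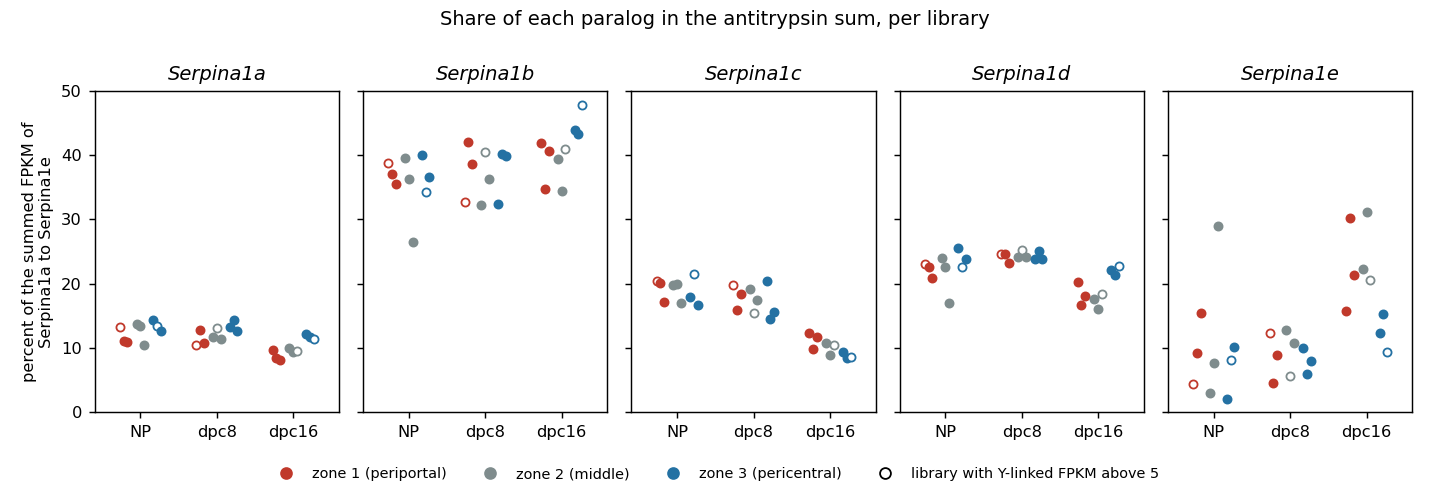
Share of each antitrypsin gene in the summed FPKM of Serpina1a to Serpina1e (percent), 1 point per library, by stage (horizontal) and zone (colour), with open symbols for the 6 libraries with Y-linked FPKM above 5. Serpina1c lies between 8.47% and 12.4% in the 9 dpc16 libraries and at 14.6% or more in the other 18.

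The genes whose log2(FPKM + 1) followed each member most closely over the 27 libraries were mostly other plasma proteins of the hepatocyte. Serpina1a was most like Ahsg, the carrier protein fetuin-A (Pearson's r = 0.97), Cfi, complement factor I (0.96), and F2, prothrombin (0.95). Serpina1b was most like F10, coagulation factor X (0.96), Ahsg (0.96) and Hsd11b1 (0.95), and Serpina1d was most like Cfi (0.98), Vtn, vitronectin (0.96), and F10 (0.96). Serpina1c followed Afm (0.94), Gc (0.91) and Apoc3 (0.90), which encode carriers of vitamin E and vitamin D and an apolipoprotein. Serpina1e stood apart, next to Ppib (0.92), Slc35b1 (0.91) and Hsp90b1 (0.90), genes of protein folding and transport in the endoplasmic reticulum. Serpina3n was most like Fga (0.91) and Fgb (0.89), which encode fibrinogen chains, and Serpina10 (0.89). Among the genes nearest to Serpina3k were the mitochondrial genes mt-Nd4 (0.93) and mt-Nd5 (0.89), and Serpina3m was next to Ifitm2 (0.92), Il13ra1 (0.88) and H2-K1 (0.86), the last a major histocompatibility gene. These values describe libraries that share stage, zone and tissue make-up, and the closest genes were picked for their r. Within groups, after each group mean was taken off, Serpina3m and Serpina3n had r = 0.90, against 0.56 over all libraries and 0.45 over the 21 without Y-linked FPKM. Over these 21 the named neighbours of the 5 antitrypsin genes had r from 0.83 (Apoc3 with Serpina1c) to 0.97, those of Serpina3n 0.90 to 0.92, and mt-Nd4 and mt-Nd5 with Serpina3k 0.86 and 0.81. Those of Serpina3m were at 0.81 (Ifitm2), 0.79 (Il13ra1) and 0.32 (H2-K1), so that the likeness of H2-K1 rested on the 6 libraries.

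Other members of the serpin cluster and genes that act with antitrypsin were read from fixed lists in the same zone 1 comparisons. Of all genes tested, 1.37% passed against NP and 2.01% against dpc8, or 2.92% and 4.38% without the 6 libraries. Of 8 tested neighbours and near relatives, 2 rose from NP to dpc16 and 4 from dpc8, and none fell. Serpina6, corticosteroid-binding globulin, whose product carries glucocorticoids in plasma, was at 18773 ± 4721 FPKM at dpc16 against 219.7 ± 114.7 in NP (SD, n = 3 each, log2 difference 6.54, SE 0.49, adjusted p = 2.4e-08), and thus above every antitrypsin gene. Serpina16 was listed at 0 in all 18 libraries of NP and dpc8 and at 8.62 ± 2.08 FPKM in dpc16 zone 1. Serpina11 rose from 25.3 ± 2.4 at dpc8 to 106.8 ± 15.3 (log2 difference 2.03, adjusted p = 0.0127). Without the 6 libraries 3 of the 8 passed against NP and 5 against dpc8, with Serpina6 at 6.66 (adjusted p = 1.6e-07) against NP and Serpina11 at 1.96 (adjusted p = 0.000141) against dpc8. With all libraries, among 14 other serpins of liver and plasma none passed against either stage, and the most abundant were Serpinc1, antithrombin (mean of 2980 FPKM over all libraries), Serpinf1 (696) and Serping1, the C1 inhibitor (440).

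Of 17 other plasma protease inhibitors, 1 rose against NP and 3 against dpc8, with none lower. For this and the next lists, the shares of all genes that passed were 1.37% and 2.01%, or 2.92% and 4.38% without the 6 libraries. Itih4, an inter-alpha-trypsin inhibitor heavy chain, rose from 1114 ± 276 FPKM in NP to 9182 ± 1127 at dpc16 in zone 1 (log2 difference 3.07, adjusted p = 9.4e-05). Against dpc8 Ahsg rose by 1.94 (adjusted p = 0.0127) and Fetub, fetuin-B, by 1.43 (adjusted p = 0.0378). Of 16 genes of the secretory pathway, which folds antitrypsin and exports it, 1 rose against NP, the coat protein gene Sec23a (0.71, adjusted p = 0.0295), and 3 rose against dpc8. Of 3 genes for surface receptors that clear proteins from plasma, 2 rose against NP and 1 against dpc8. Among these were the chaperone Hspa5 (1.92 against dpc8, adjusted p = 0.0463) and the asialoglycoprotein receptor genes Asgr1 (1.68 against NP, adjusted p = 0.0368) and Asgr2 (1.59 against NP, adjusted p = 0.0246). Without the 6 libraries Itih4 (2.84, adjusted p = 6.8e-08), Asgr1 (1.41, adjusted p = 3.3e-05) and Asgr2 (1.34, adjusted p = 0.000162) passed against NP, and Ahsg (1.76, adjusted p = 4.0e-06), Fetub (1.45, adjusted p = 0.000377) and Hspa5 (1.95, adjusted p = 0.0260) against dpc8. The counts were then 5 higher and 1 lower of the 17 inhibitors against NP and 10 higher against dpc8, 2 and 7 higher of the 16 secretory genes, 2 and 2 higher of the 3 receptor genes, and 1 higher against NP and 2 higher and 2 lower against dpc8 among the 14 other serpins. Of 6 tested genes for serine proteases and neutrophil granule proteins none passed, with or without the 6 libraries. The most abundant was Klkb1, plasma prekallikrein, with a mean of 69.7 FPKM, while Elane, neutrophil elastase, had a mean of 0.111 FPKM and was listed at 0 in 21 libraries. The summed FPKM of 6 neutrophil markers was 0 to 27.2.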

How the data were processed

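RNA from laser-microdissected liver zones was sequenced from rRNA-depleted libraries (KAPA HyperPrep with RiboErase, single-end, 86 bases). The authors trimmed reads with cutadapt, mapped them to mm10 with HISAT2 2.1.0 and GENCODE annotation, kept uniquely mapped reads and computed FPKM of protein-coding genes with Cuffdiff (Cufflinks 2.2.1). The deposited FPKM were used as they are, and no counts were used here. Members and lists were chosen with earlier results of these data known. Genes that reached 1 FPKM in 3 or more libraries (12952) were tested with limma 3.58.1 (R 4.3.3) on log2(FPKM + 1), with a mean for each of 9 groups, all 27 libraries, trend and robust variance, two-sided, and Benjamini-Hochberg adjustment over all genes within a comparison at 0.05. The pseudocount understates changes of low genes. The fit was checked on simulated data. Up to 3 genes of a list were named, those with the largest called change or, where none was called, the highest mean. Sec23a, Lbp, Mt1, Mt2, Hamp, Stat5a and Socs2, members of counts of 5 or fewer or lost calls, were named after their values were seen. Likeness is Pearson's r over 27 libraries, with the 9 genes left out of the candidates. Some items are not reported here. Gene positions and transcripts came from GENCODE vM21 (21609 of 21823 gene IDs matched), and coding sequences were aligned with MAFFT 7.526. The replicate number was taken to pair zones at dpc16, where all 9 correlations of deviations between same-numbered libraries were over 0.1 (0.26 to 0.86), but not in NP (4 of 9), at dpc8 (5 of 9) or between stages (11 of 27).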

Additional observations from a re-analysis of the deposited data

How the results depend on the processing

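In the reported fit no member was called outside dpc16 against NP and against dpc8 in zone 1. The number of the 8 genes called stayed within 1.5 times its value for 323 combinations of a comparison and an alternative and moved further for 43. Most of the 323 were a count of 0 that stayed at 0, which is no measure of stability. None of the 4 called differences changed sign. Leaving out each of 6 libraries in turn kept the call of Serpina1b against NP in 1 fit. Against dpc8 it kept that of Serpina1b in 5 fits and those of Serpina1a and Serpina1d in 0. The counts that moved are given here, and the cause was not tested. For dpc16 zone 1 against NP, where 1 gene was called, quantile normalization and a fit to the 2 groups alone gave 0, the connective tissue marker score as a covariate 2, leaving out the 6 libraries with Y-linked FPKM 3, and array weights 4. Against dpc8, where 3 were called, quantile normalization gave 1, and array weights and leaving out the 6 libraries 5. For zone 2 against NP, where 0 were called, the covariate gave 2, leaving out the 6 libraries 3 and array weights 5, and against dpc8 scaling to 1 FPKM sum and the covariate gave 1, leaving out the 6 libraries 3 and array weights 4. For zone 3 against NP, also 0, quantile normalization and the covariate gave 1, and array weights and leaving out the 6 libraries 3, and against dpc8 quantile normalization gave 1, the covariate and leaving out the 6 libraries 3, and array weights 4. Between zones 1 and 3, leaving out the 6 libraries gave 3 against 0 both in NP and at dpc16, and at dpc16 quantile normalization, scaling, array weights and the covariate gave 1 and the replicate block 3. The number of all genes called moved with these settings too. For zone 1 against NP it was 177 in the reported fit, 59 with the 2 groups alone, 171 with quantile normalization, 330 with the covariate, 378 without the 6 libraries, 667 with array weights and 735 with scaling. Against dpc8 it was 260, and under the settings where the count of members moved it was 240 with quantile normalization, 567 without the 6 libraries and 1007 with array weights. Its values with scaling and with the 2 groups alone are not given here. For zone 2 it was 345 against NP and 195 against dpc8, with 835 and 744 under the covariate, 1101 and 993 with array weights and 911 with scaling against dpc8. For zone 3 it was 171 and 178, with 546 and 464 under the covariate, 776 and 1567 with array weights and 154 and 162 with quantile normalization. Between zones 1 and 3 at dpc16 it was 201, with 197 under quantile normalization, 238 with scaling, 496 with array weights, 318 under the covariate and 343 with the replicate block.

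Leaving out 1 library at a time gave 0 to 1 calls for dpc16 zone 1 against NP and 0 to 1 against dpc8. For zone 2 it gave 0 to 1 against NP and 0 to 2 against dpc8. Both of the zone 2 values above 0 were without replicate 3 of dpc16. The number of all genes called in these fits is not given, so a general loss of calls with fewer libraries cannot be told apart. The replicate block changed no call between stages, with adjusted p = 0.0464 for Serpina1b against NP, and 0.0134 for Serpina1b and 0.0490 for Serpina1a and Serpina1d against dpc8. Scaling each library to 1 FPKM sum moved the median of all genes to -0.57 in zone 1 for dpc16 against NP and to -0.66 against dpc8. The log2 differences became 1.06 (1.67 without scaling) for Serpina1b against NP, and against dpc8 1.33 (2.04) for Serpina1b, 0.90 (1.61) for Serpina1a and 0.87 (1.58) for Serpina1d, each still called. Under quantile normalization Serpina1b against NP (0.63, adjusted p = 0.211) and Serpina1a (1.05, adjusted p = 0.0658) and Serpina1d (0.65, adjusted p = 0.0694) against dpc8 lost their calls, and Serpina1b was at 0.86 against dpc8 (adjusted p = 0.0384). With no filter on low FPKM Serpina1a against dpc8 had an adjusted p of 0.0507. Of the 9 settings besides those that leave out 1 library, 6 kept the call of Serpina1a against dpc8. The call of Serpina1d was kept in 7 and that of Serpina1b in 9, and against NP that of Serpina1b in 7. For Serpina1d against dpc8, the sum of the 5 genes gave 1.99 in place of 1.58.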

Other observations

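Outside the serpins, genes of hormone and cytokine signalling were read from fixed lists in zone 1. Of 11 genes of growth hormone and prolactin signalling, 2 rose from NP to dpc16 and the same number from dpc8. Of all genes, 1.37% and 2.01% passed in these comparisons. Ghr, the growth hormone receptor, went from 170.6 ± 48.2 to 2077 ± 428 FPKM (SD, n = 3 each, log2 difference 3.62, limma adjusted p = 5.6e-07), and Prlr, the prolactin receptor, from 211.2 ± 76.8 to 2147 ± 96 FPKM (log2 difference 3.42, adjusted p = 7.0e-06). Both were also higher at dpc16 in zone 3, Ghr by 2.42 (adjusted p = 0.000148) and Prlr by 2.28 (adjusted p = 0.00127). In zone 2 Ghr (2.75, adjusted p = 3.3e-05) and Prlr (2.27, adjusted p = 0.00117) were higher and Stat5a, a transducer of these signals, was lower, from 7.47 ± 2.41 to 3.03 ± 0.70 FPKM (log2 difference -1.05, adjusted p = 0.0464). Without the 6 libraries with Y-linked FPKM, Ghr and Prlr passed in all 3 zones, with the largest log2 differences in zone 1 (3.39 and 3.06), and Stat5a did not pass in zone 2 (-1.14, adjusted p = 0.0597), where Socs2, an inhibitor of these signals, passed (1.32, adjusted p = 0.0360).

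Of 26 positive acute phase genes, 1 passed against NP and 1 against dpc8 in zone 1, beside 1.37% and 2.01% of all genes. It was Cp, ceruloplasmin, the copper carrier of plasma, which rose from 514 ± 185 to 3759 ± 96 FPKM against NP (log2 difference 2.94, adjusted p = 0.000198) and by 2.82 against dpc8 (adjusted p = 0.000406). The median difference over the 26 genes was 0.999 against NP, beside -0.05 over all genes, and 0.64 without the 6 libraries with Y-linked FPKM. Of 14 hepatocyte transcription factors and cytokine signalling genes none passed against NP and Foxa3, a liver forkhead factor, passed against dpc8, from 12.04 ± 3.39 to 80.06 ± 27.65 FPKM (log2 difference 2.61, adjusted p = 0.0137). Without the 6 libraries 2 acute phase genes passed against NP in zone 1, Cp (adjusted p = 6.0e-07) and Lbp (1.46, adjusted p = 0.0459), and 4 passed against dpc8. Against NP 6 passed in zone 2 and 7 in zone 3, all higher. The shares of all genes were then 2.92% and 4.38% in zone 1, and 4.45% and 3.61% against NP in zones 2 and 3. With all 27 libraries 3 acute phase genes were higher than in NP in zone 2, Cp, Mt1 and Mt2, where 2.66% of all genes passed. In zone 3, where 1.32% of all genes passed, Cp was higher and Hamp, hepcidin, lower (log2 difference -4.79, adjusted p = 0.0425, and 0.0580 without the 6 libraries). In zone 1 without the 6 libraries, Foxa3 passed against NP (1.12, adjusted p = 0.0409) and dpc8 (2.37, adjusted p = 7.7e-05).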
